A study of Rattus norvegicus with 9 samples.

Results

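Neurotrophins and their receptors were represented by 6 genes, each by 1 probe, among 22517 probes on a rat bead array. The genes were Bdnf, Ntf3, Ntrk2, Ntrk3, Ngfr and Sort1, taken as the probes whose platform gene symbol matches one of these names. The match used gene symbols alone, and the 6 genes were listed with earlier results of these data known. RNA came from the cerebral cortex of 9 Sprague-Dawley rats killed at 60 days of age, 6 males and 3 females, and 1 array was hybridised per animal. All 9 were non-irradiated controls of a study of cortical dysplasia in offspring of irradiated rats, and the irradiated arm was not analysed here. No transgene or drug treatment is described, and the labels separate the animals by sex alone. Each sample title also bears 1 of 3 consecutive numbers from 120 up whose meaning is not given. Each number covers 2 males and 1 female.

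Neurotrophins are secreted growth factors that neurons make as larger precursors and cleave into mature dimers. Mature BDNF binds TrkB, the product of Ntrk2, and mature NT-3, the product of Ntf3, binds TrkC, the product of Ntrk3. Both are receptor tyrosine kinases that signal through Ras-ERK, PI3K-Akt and phospholipase C. The p75 receptor, encoded by Ngfr, binds all mature neurotrophins weakly and binds the precursors tightly together with sortilin, the product of Sort1, which also sorts pro-BDNF into the regulated secretory pathway. In cortex, BDNF is made chiefly by excitatory neurons in response to synaptic activity and bears on dendrite growth and synaptic plasticity, while TrkB is also made by astrocytes in a truncated form that lacks the kinase.

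Because Bdnf transcription starts at several promoters, each joined to its own first exon, the upstream windows of the members were read from RefSeq (assembly GRCr8). Windows of 250 bases before a start were held for 3 of the 6 members, 6 for Bdnf, 3 for Ntf3 and 1 for Sort1. The calcium-responsive element CACGTCA, known from rat Bdnf, was searched on both strands. It lay in 1 of the 6 Bdnf windows and in none of the other 4 member windows, against 1.54% of 33469 windows of the same length. Because the element was chosen from Bdnf itself, this match is no test of the members. Some windows of Bdnf and of Ntf3 also overlap each other. The full cAMP response element TGACGTCA lay in 0 of the 10 member windows, against 1.59% of all. The shorter site TGACG lay in 1 of the 10, against 18.2% of all windows. There it is part of CACGTCA read on the other strand, so it adds no further match. The window that holds the match is at chr3:116637608-116637857 on the plus strand. It is shown because neuronal activity is known to act on rat Bdnf through this element, and the capitals mark the CACGTCA match, whose first base lies 37 bases before the start.

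Bdnf upstream window: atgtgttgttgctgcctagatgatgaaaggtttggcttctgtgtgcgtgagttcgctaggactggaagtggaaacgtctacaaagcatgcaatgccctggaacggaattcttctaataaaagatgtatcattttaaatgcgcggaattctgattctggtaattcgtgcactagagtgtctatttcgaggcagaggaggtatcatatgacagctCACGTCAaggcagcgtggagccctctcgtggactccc

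A match of letters is a description of this window and not a measured binding site. The array has 1 Bdnf probe, so the levels below do not tell which promoter a transcript came from.

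Mean array intensity was 183.6 to 238.8 in males and 183.7 to 213.4 in females, and the 3 dimmest arrays were those of males 2 and 4 and female 2. Arrays correlated at 0.981 to 0.994 with each other on the log2 scale, and the number of animals limits the precision. The median SD within a sex was 0.11 log2 units over the 13002 probes detected on all 9 arrays, where detected means above the 25th percentile of its array. All 8 measured markers of excitatory neurons and all 11 of interneurons were detected on every array, as were all 12 of astrocytes and all 12 of oligodendrocytes. All 10 striatal markers and 8 of 11 hippocampal markers were detected on every array too. All these markers came from the 18531 probes detected on at least 3 arrays, of which 13002 were detected on every array. Cortex also makes many of these transcripts, so the counts do not tell whether the dissected pieces held neighbouring tissue. The 3 tested markers of basal forebrain cholinergic neurons, the cells best known for p75, had a median percentile of 42.3 and 1 was detected on all 9 arrays. The part of these transcripts in any result below was not tested.

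Levels are given below as log2 of background-corrected, quantile-normalised intensity. A probe's brightness depends on its sequence, so no probe's level is set against another probe's. Each probe's place among the probes of its own array is given instead. The sexes were compared with limma over 18531 probes detected on at least 3 arrays. At a Benjamini-Hochberg adjusted p under 0.05, 0 of these probes were called (0%), 439 (2.37%) had an unadjusted p under 0.05, and 1 (0.0054%) had one under 0.001, the threshold the study names. None of the 6 members reached an unadjusted p under 0.05 in this fit. The smallest limma adjusted p over all probes was 0.9999, which is therefore also the bound for every member. In bulk tissue, fewer cells of a type and less RNA per cell cannot be told apart.

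Bdnf was a well detected transcript, at percentiles 77.5 to 84.1 of each array. In males its lowest level was 7.35, its median 7.50 and its highest 7.72, against 8.01, 7.34 and 7.74 in females 1, 2 and 3. Female 1 was the highest animal and female 2 the lowest, so the females enclosed the whole range of the males. The mean was 7.50 ± 0.14 in males (SD, n = 6) and 7.70 ± 0.34 in females (SD, n = 3). Male minus female was -0.20 ± 0.13 (SE) log2 units by limma, with an unadjusted p of 0.15. The value was -0.04 without female 1 and -0.38 without female 2. It was -0.34 without the 3 dimmest arrays and -0.28 with array weights. The unadjusted limma p was 0.0053 without female 2, 0.018 without the 3 dimmest arrays and 0.039 with array weights. The adjusted p was 0.98 or more in each of these settings. Between the lowest and highest animal Bdnf differed 1.59-fold, and its within-sex SD stood at percentile 90.6 of all tested probes and at percentile 77.2 of probes within 0.5 log2 units of its mean level.

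Ntf3 lay near the background of the array, in adult cortex where NT-3 is known to be scarce. Uncorrected intensity was 39.0 to 65.2 in males, with a median of 44.6, against 44.1, 42.4 and 47.5 in females 1, 2 and 3. The probe passed the 25th percentile on 4 of 6 male arrays and 2 of 3 female arrays. The 3 arrays on which it did not pass were those of males 1 and 2 and female 1, which are the 3 arrays with the title number 120. These 3 arrays also had the 3 highest detection limits, at 42.9 to 44.7 against 39.7 to 42.0 on the other 6. Male 5 was the highest animal at a log2 level of 6.32, and the other 8 lay between 5.79 and 6.10. Mean levels were 6.003 ± 0.18 in males (SD, n = 6) and 5.987 ± 0.10 in females (SD, n = 3), a difference of 0.02 ± 0.10 (SE). The background offset compresses dim probes, so differences of Ntf3 are understated.

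Ntrk2 was among the brightest transcripts, at percentiles 97.1 to 98.0 of each array. Its log2 level in males was lowest at 10.40, with a median of 10.52 and a highest value of 10.77, against 10.66, 10.81 and 10.38 in females 1, 2 and 3. Males 4 and 6 and female 2 formed the upper end and male 3, male 5 and female 3 the lower end, so both ends held both sexes. The mean was 10.57 ± 0.16 in males (SD, n = 6) and 10.62 ± 0.22 in females (SD, n = 3). Male minus female was -0.05 ± 0.11 (SE) log2 units, with an unadjusted limma p of 0.67. Whether the probe reads the kinase-bearing or the truncated TrkB transcript is not given in the sources used here.

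Ntrk3, the TrkC gene, was the steadiest member for its level. Its males ranged from 8.02 to 8.24 with a median of 8.13, and females 1, 2 and 3 stood at 8.21, 8.21 and 8.06. Its mean was 8.12 ± 0.09 in males (SD, n = 6) and 8.16 ± 0.09 in females (SD, n = 3), a difference of -0.03 ± 0.06 (SE). Only 9.97% of probes of similar level had a smaller within-sex SD. Its correlation with Ntrk2 between animals, which did not pass after adjustment, is described below.

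Ngfr, the p75 gene, was dim but detected on all 9 arrays, at percentiles 33.9 to 60.8. Its uncorrected intensities of 43.5 to 61.9 lie close to the detection limits. On the log2 scale males ranged from 5.97 to 6.33 with a median of 6.24, and females 1, 2 and 3 stood at 6.22, 6.28 and 6.06. Male 3 and female 3 were the lowest animals. The mean was 6.20 ± 0.13 in males (SD, n = 6) and 6.19 ± 0.11 in females (SD, n = 3), and the difference was 0.02 ± 0.08 (SE).

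Sort1, the sortilin gene, lay at percentiles 64.3 to 68.2 of each array. Its males ranged from 6.46 to 6.65 with a median of 6.56, and females 1, 2 and 3 stood at 6.45, 6.58 and 6.65. Male 1 and female 1 were the lowest animals and male 6 and female 3 the highest, so neither sex held an end alone. The mean was 6.55 ± 0.08 in males (SD, n = 6) and 6.56 ± 0.10 in females (SD, n = 3), with a difference of -0.01 ± 0.06 (SE).

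**Figure D1:**
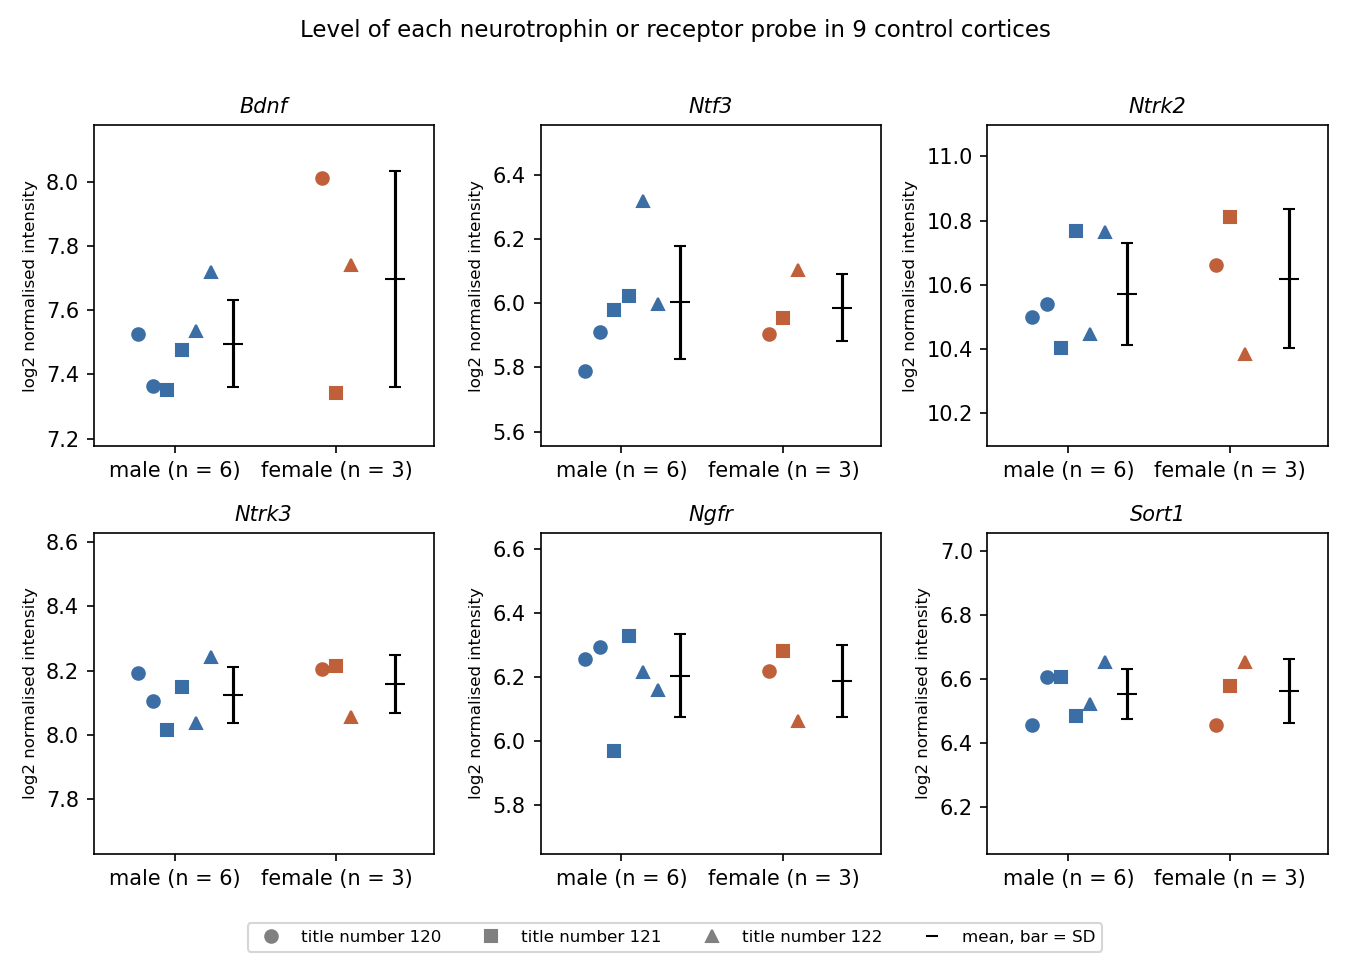
Log2 normalised intensity (vertical axes, one scale width for all 6 panels) of each gene in 6 males (left of each panel) and 3 females (right). Points are animals, their shapes mark the title number, and the line and bar give mean and SD; the sexes overlap in every panel, and Bdnf shows the widest spread among females, from 7.34 to 8.01.

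For all 6 members the male and female values overlapped, where 278 of 18531 probes (1.5%) had values that did not. The male average was lower for 4 members (Bdnf, Ntrk2, Ntrk3 and Sort1) and higher for Ntf3 and Ngfr, and 50.3% of all tested probes had a lower male average. The differences of Ntrk2, Ntrk3, Ngfr and Sort1 were all smaller than the SD within either sex, as was that of Ntf3. That of Bdnf was larger than the male SD and smaller than the female SD.

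Across the title numbers, an F test in limma, fitted together with sex, called 0 of 18531 probes at an adjusted p under 0.05 (0%), and 1772 (9.56%) had an unadjusted p under 0.05. Ntf3 was the 1 member among those, with an unadjusted p of 0.032 and an adjusted p of 0.49. Its mean log2 level was 5.87 ± 0.07, 5.98 ± 0.03 and 6.14 ± 0.16 for number 120 and the next numbers in order (SD, n = 3 each). As given above, the probe did not pass the detection limit on any array of number 120. Bdnf averaged 7.63, 7.39 and 7.67 in the same order, with an unadjusted limma p of 0.12 and an adjusted p of 0.60. The other 4 members had unadjusted p-values of 0.38 to 0.76. The numbers are not stated to mark litters, surgery days or batches.

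The largest correlation within the group was between the Trk receptor genes. Across the 9 animals Ntrk2 and Ntrk3 correlated at r = 0.82 (exact permutation p = 0.014 over all 362880 pairings, two-sided, adjusted p = 0.21 over 15 pairs of members). The rank correlation was rho = 0.78 (exact permutation p = 0.017, adjusted p = 0.26). Without male 4 and female 2, the animals farthest from the median of Ntrk2, r was 0.88, and it was 0.88 over the 6 brighter arrays. Leaving out 1 animal at a time gave 0.78 to 0.92. With the mean of each title number removed, r was 0.91 (exact permutation p = 0.042 over the 216 orders within title numbers, adjusted p = 0.62). With the mean of each sex removed r was 0.82 (exact permutation p = 0.024 over the 4320 orders within sexes, adjusted p = 0.36). Within a title number there were 3 animals, too few for a correlation.

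**Figure D2:**
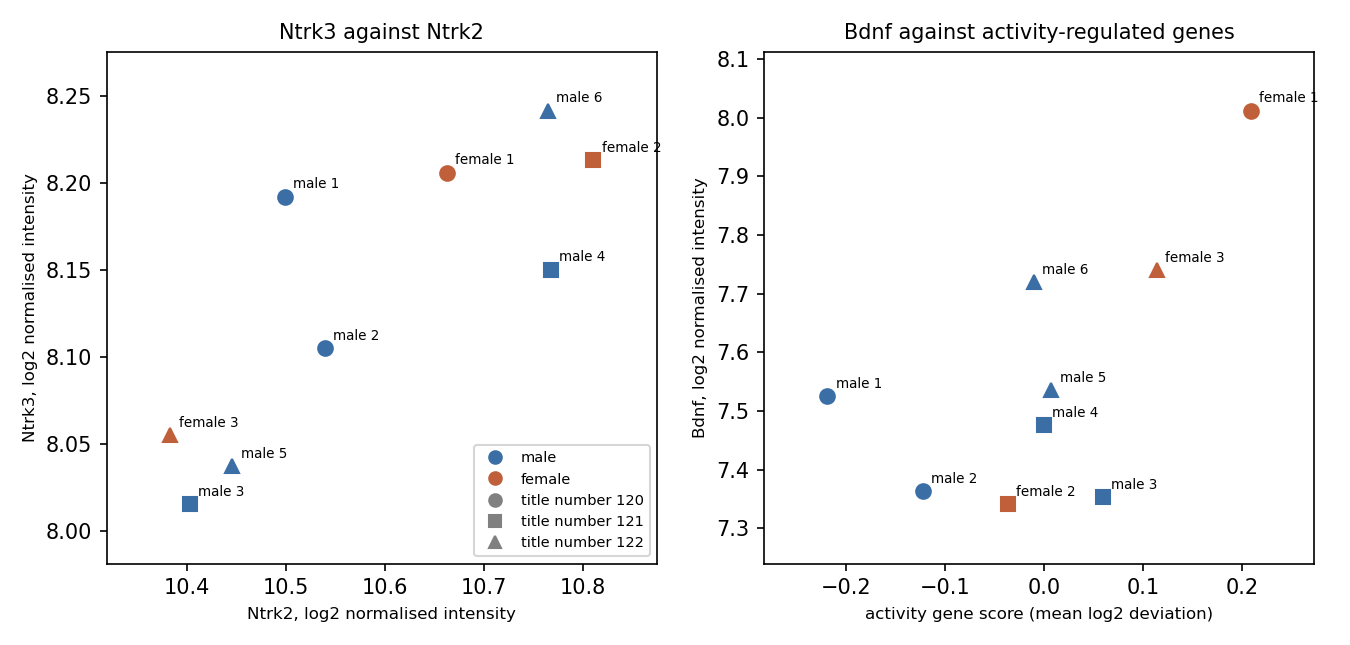
Left, log2 normalised intensity of Ntrk3 against Ntrk2; right, Bdnf against the activity gene score, the mean log2 deviation of 27 activity-regulated genes from their means over animals. Each point is an animal, coloured by sex and shaped by title number. The Trk genes had r = 0.82 (exact permutation adjusted p = 0.21), and female 1 and female 3 stand apart at the upper right for Bdnf.

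The Trk genes were next set against the p75 gene. Ntrk2 and Ngfr had r = 0.60 and Ntrk3 and Ngfr r = 0.54, each with an exact permutation adjusted p of 0.43. Ngfr and its co-receptor gene Sort1 had r = -0.53, and Ntf3 and its receptor gene Ntrk3 had r = -0.56, both again with an adjusted p of 0.43. Bdnf and its receptor gene Ntrk2 had r = 0.05, and the remaining 10 pairs, of which this is 1, had r between -0.27 and 0.31 and adjusted p-values of 0.85 or more. In all, 0 of 15 pairs passed an adjusted p of 0.05. Of the 4 pairs with an adjusted p of 0.43, 3 depend on the scaling for their sign. Without normalisation between arrays r was 0.16 for Ntf3 and Ntrk3 and -0.034 for Ntrk3 and Ngfr, and with 75th percentile scaling r was 0.066 for Ngfr and Sort1. Ntrk2 had r = -0.62 to mean array intensity (exact permutation p = 0.084, adjusted p = 0.37 over 6 members), and Ntrk3 had r = -0.36. Their part in the correlation of Ntrk2 and Ntrk3 was not tested beyond the value over the 6 brighter arrays.

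**Figure D3:**
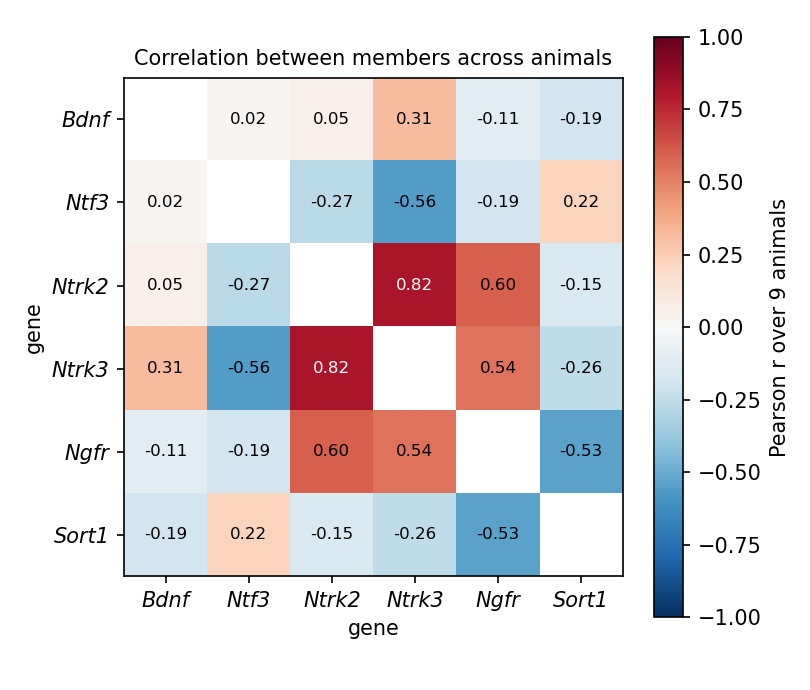
Pearson r between the 15 pairs of genes over 9 animals, from blue (negative) to red (positive), with the value in each cell. Ntrk2, Ntrk3 and Ngfr form the positive block at 0.54 to 0.82, where the value of Ntrk3 and Ngfr turned to -0.034 without normalisation, and none of the 15 pairs passed the adjusted threshold.

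Each member was then set against the scores of 22 gene lists, among them cell types, neighbouring regions and signalling groups, a score being the mean log2 deviation of a list's genes from their means over animals. Of the 132 relations, 6 had an unadjusted exact permutation p under 0.05 and 0 passed after adjustment over the 132. The strongest was between Ngfr and oligodendrocyte precursor genes, with r = -0.93 (exact permutation p = 0.0010, adjusted p = 0.14) and rho = -0.73 (adjusted p = 0.59). Without male 3 and female 3 it was -0.66, and with the means of the title numbers removed it was -0.96 (exact permutation adjusted p = 0.66, over orders within title numbers). Its 7 genes did not move as 1 group: 1 of the 7 had a positive r with Ngfr, Olig2 at 0.72, the median was -0.14 and Sox10 was lowest at -0.84. Olig2 and Sox10 both encode transcription factors of the oligodendrocyte lineage. Sort1 had r = 0.73 with the same score (exact permutation p = 0.027, adjusted p = 0.70). It had r = -0.69 with claustrum and endopiriform genes (exact permutation p = 0.038, adjusted p = 0.70). Ngfr had r = 0.67 with Ras-ERK and CREB genes (exact permutation p = 0.047, adjusted p = 0.70). Over the 6 brighter arrays these 2 values were -0.73 and 0.35.

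Ntf3 had r = -0.74 with oligodendrocyte genes (exact permutation p = 0.053, adjusted p = 0.70). This value rests on male 5, whose oligodendrocyte score of -0.87 was the lowest, with the next animal at -0.09, and whose Ntf3 was the highest. Without male 5 it was -0.03. Ntrk3 had r = -0.67 with astrocyte genes and Ntrk2 had r = -0.65 with thalamic genes (exact permutation p = 0.053 and 0.033, adjusted p = 0.70 for both). Both turned positive without normalisation between arrays, at 0.55 and 0.27.

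Bdnf varied alongside part of the activity-regulated genes, the transcripts that neurons switch on after firing. Of the 27 measured, 22 had a positive r with Bdnf, and the median was 0.34, while over the 5377 named genes compared 53.9% were positive and the median was 0.06. Egr3, an activity-induced transcription factor, had r = 0.93. Its probe was dim and varied little, with log2 levels of 5.95 to 6.12 and a within-sex SD of 0.06. The 5377 genes compared had an SD of at least 0.1 log2 units, a limit not set for the 27. Vgf, a secreted neuropeptide precursor that BDNF is known to induce, had 0.90, and Nptx2, a secreted protein that gathers glutamate receptors at synapses, had 0.87. Fos had 0.75, Arc 0.65 and Npas4, a direct activator of Bdnf, 0.61. Nr4a1, an orphan nuclear receptor, was lowest at -0.36. These genes were chosen from the list after their values were seen. For the score over all 27 genes r was 0.63 (exact permutation p = 0.073, adjusted p = 0.70) and rho was 0.53. It was 0.31 without female 1 and -0.03 without females 1 and 3, so it rests on those animals. The score was 0.21 in female 1 and 0.11 in female 3, and between -0.22 in male 1 and 0.06 in male 3 in the other 7 animals. Bdnf had r = 0.62 with interneuron genes and 0.62 with excitatory neuron genes, each with an exact permutation adjusted p of 0.70. Over the 6 brighter arrays these were 0.81 and 0.90, against 0.57 for the activity score. Without females 1 and 3 they were 0.10 and -0.23. The relation was thus not particular to activity-regulated genes.

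The score of genes of the Ras-ERK and CREB output, which lies below TrkB, had r = -0.69 with Bdnf (exact permutation p = 0.038, adjusted p = 0.70) and rho = -0.78. The score is made of transcript levels of pathway components, and signalling itself was not measured. Of 14 genes, 6 had a positive r and the median was -0.41, from -0.80 for Rap1a, a small GTPase, to 0.53 for Map2k5, a kinase of the ERK5 branch. Without normalisation between arrays this score's r was 0.33, so its sign depends on the scaling.

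For each member detected on all 9 arrays, the genes with the most similar and the most opposed course over animals were listed, among named genes with an SD of at least 0.1 log2 units. These were picked for their r out of 5377 or 5378, so they are descriptions without a test, and the points share array brightness. Bdnf was most like Dnajb11 (r = 0.98), a co-chaperone of the endoplasmic reticulum, Pdia4 (r = 0.96), a disulfide isomerase of the same compartment, and Copg1 (r = 0.93), a coat subunit of Golgi-derived vesicles. Without females 1 and 3 these values were 0.96, 0.90 and 0.84, and over the 6 brighter arrays 0.98, 0.97 and 0.94. Most opposed were Mid1ip1 (r = -0.94), a regulator of lipid synthesis, and Cirbp (r = -0.93), an RNA-binding protein induced by mild cold. Dnajb11 ranged from 7.88 to 8.27 in males, with a median of 8.003, and stood at 8.45, 7.88 and 8.19 in females 1, 2 and 3. Female 1 was highest and female 2 lowest, as for Bdnf. Bdnf had 10 genes at r of 0.9 or above and 9 at -0.9 or below, while Sort1 had 0 of either and the other members 3 to 9 in all.

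**Figure D4:**
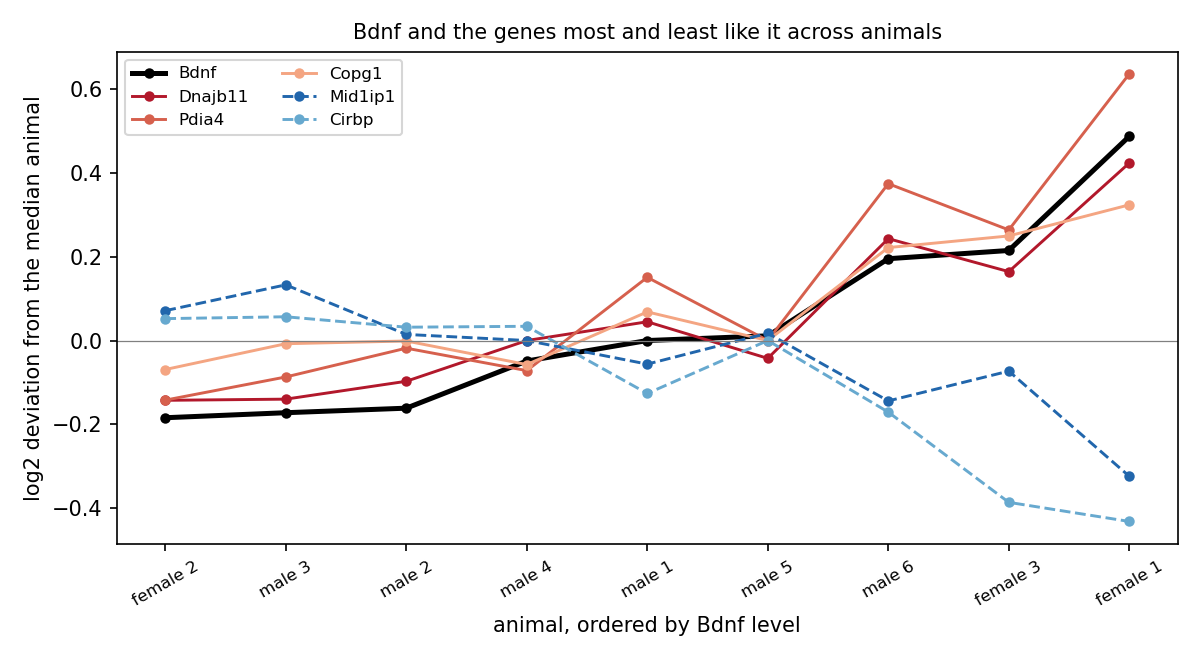
Log2 deviation from the median animal (vertical axis) for Bdnf (black), the 3 genes most like it (solid, red shades) and the 2 most opposed (dashed, blue shades), with animals ordered from the lowest to the highest Bdnf level. The solid lines climb with Bdnf toward male 6, female 3 and female 1, and the dashed lines fall.

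Ntrk2 was most like Anapc4 (r = 0.91), a subunit of the anaphase-promoting complex, Ccnt2 (r = 0.91), a cyclin of transcription elongation, and Ndrg2 (r = 0.88), an astrocyte-rich protein. Most opposed to it were Cldn10 (r = -0.92), a claudin that is also among the astrocyte markers, and Selenos (r = -0.90), a selenoprotein of the endoplasmic reticulum. Ntrk3 was most like Ppp3r1 (r = 0.96), the regulatory subunit of calcineurin, followed by Usp13 (r = 0.91) and Uxs1 (r = 0.88), and most opposed to C1ql1 (r = -0.94), a secreted synapse organiser, and Ehmt1 (r = -0.89), a histone methyltransferase. Ppp3r1 ranged from 10.69 to 11.36 in males, with a median of 11.04, and stood at 11.21, 11.25 and 10.87 in females 1, 2 and 3. Male 3 was lowest and male 6 highest for both Ntrk3 and Ppp3r1.

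Ngfr was most like Sike1 (r = 0.94), Cap1 (r = 0.92), an actin regulator, and Grin2b (r = 0.92), an NMDA receptor subunit. Most opposed were Cox5a (r = -0.93), a subunit of mitochondrial cytochrome oxidase, and Zdhhc1 (r = -0.92), a palmitoyl transferase. Male 3 was the lowest animal for Sike1, Cap1 and Grin2b and the highest for Cox5a and Zdhhc1. It also had the highest choroid plexus score, at 1.13, with male 2 next at 0.39. Ngfr had r = -0.60 with that score (exact permutation p = 0.090, adjusted p = 0.70), and 0.14 without male 3 and female 3. Whether choroid plexus tissue bears on these values was not tested. Without male 3 and female 3 the Grin2b value was 0.47, while those of Sike1 and Cap1 were 0.92 and 0.89. Sort1 was most like Fhdc1 (r = 0.89), Phlpp1 (r = 0.86), a phosphatase that acts on Akt, and Myh14 (r = 0.85), a nonmuscle myosin. Most opposed were Aqp4 (r = -0.89), the astrocyte water channel, and Trim2 (r = -0.89), a ubiquitin ligase. Ntf3 was not detected on all 9 arrays and was left out of this listing by its rule.

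The wider pathway was read through 8 lists that hold no member. At an adjusted p of 0.05, 0 genes of any list differed between the sexes, beside 0% of all probes. The 3 measured receptor relatives outside the group, Sorcs2 and Sorcs3 of the sortilin family and Nradd, a p75 homologue, had male minus female values of -0.03, 0.04 and -0.04 log2 units. Sorcs3 had a level of 7.62 to 8.23 in males, with a median of 7.82, and 8.10, 7.67 and 7.75 in females 1, 2 and 3, and its r with Bdnf was 0.65. Among 13 genes of proneurotrophin processing and sorting, 7 were higher and 6 lower in males, with a median of 0.02. Hap1, whose product carries pro-BDNF vesicles together with huntingtin and sortilin, had the widest spread of them. It averaged 7.88 ± 0.80 in males (SD, n = 6) and 7.57 ± 0.22 in females (SD, n = 3), and male 5 stood alone at 9.44. Mmp9, a protease that can cleave pro-BDNF, was at 6.70 ± 0.31 in males (SD, n = 6) and 6.71 ± 0.17 in females (SD, n = 3).

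Of 25 Trk adaptors and proximal signalling genes, 9 were higher and 16 lower in males, with a median of -0.03, and Gab1, a docking protein, had a difference of -0.11 ± 0.05 (SE). Kidins220, a scaffold of Trk receptors, was at 10.77 ± 0.23 in males (SD, n = 6) and 10.80 ± 0.16 in females (SD, n = 3). Of 14 Ras-ERK and CREB genes, 8 were higher and 6 lower, and Creb1, the transcription factor, had a difference of 0.14 ± 0.07 (SE). Of 14 Akt and mTOR genes, 10 were higher and 4 lower, with a median of 0.01, and Rptor, the mTOR partner, had a difference of 0.10 ± 0.06 (SE). None of the genes in these lists reached an unadjusted p under 0.05.

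Of 18 p75 adaptors and partners, 7 were higher and 11 lower in males, with a median of -0.04. Rtn4, which encodes Nogo, a myelin ligand of the receptor complex that contains p75, differed by -0.14 ± 0.07 (SE), and Tradd, a death-domain adaptor, by 0.10 ± 0.05 (SE). Of 16 regulators of Bdnf transcription, 7 were higher and 9 lower, and 1 of 16 had an unadjusted p under 0.05, beside 2.37% of all tested probes. This was Bhlhe40 (-0.44 ± 0.13 SE), a repressor of the activity-controlled Bdnf promoter in rodents. Of 27 activity-regulated genes, 4 were higher and 23 lower in males, where 50.3% of all tested probes were lower, and the median was -0.10 against 0.00 over all tested probes. Of these, 5 had an unadjusted p under 0.05, all lower in males, where 2.37% of all tested probes had one in either direction. Some cell type lists had median shifts of like size. Lower in males were 9 of 11 interneuron, 7 of 8 excitatory neuron and 10 of 12 oligodendrocyte genes (medians -0.13, -0.08 and -0.12). All 13 meningeal fibroblast genes were higher (median 0.22), as were 8 of 10 microglia genes (median 0.12). Medians of astrocyte, oligodendrocyte precursor, and endothelium and pericyte genes were 0.003, 0.04 and 0.05. An unadjusted limma p under 0.05 was found for 1 interneuron, 0 excitatory neuron, 0 oligodendrocyte, 1 meningeal fibroblast and 2 microglia genes. A median shift of this size was thus not particular to activity-regulated genes. Among the activity-regulated genes, Arc showed the largest difference (-0.72 ± 0.29 SE). Its level was 8.54 to 9.51 in males, with a median of 9.03, against 10.37, 8.91 and 9.87 in females 1, 2 and 3. Females 1 and 3 lay above all males and female 2 below the male median, so the difference rests on females 1 and 3. The difference of Bdnf (-0.20) lies on the same side as that of most activity-regulated genes, and it was not tested whether it belongs with them.

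**Figure D5:**
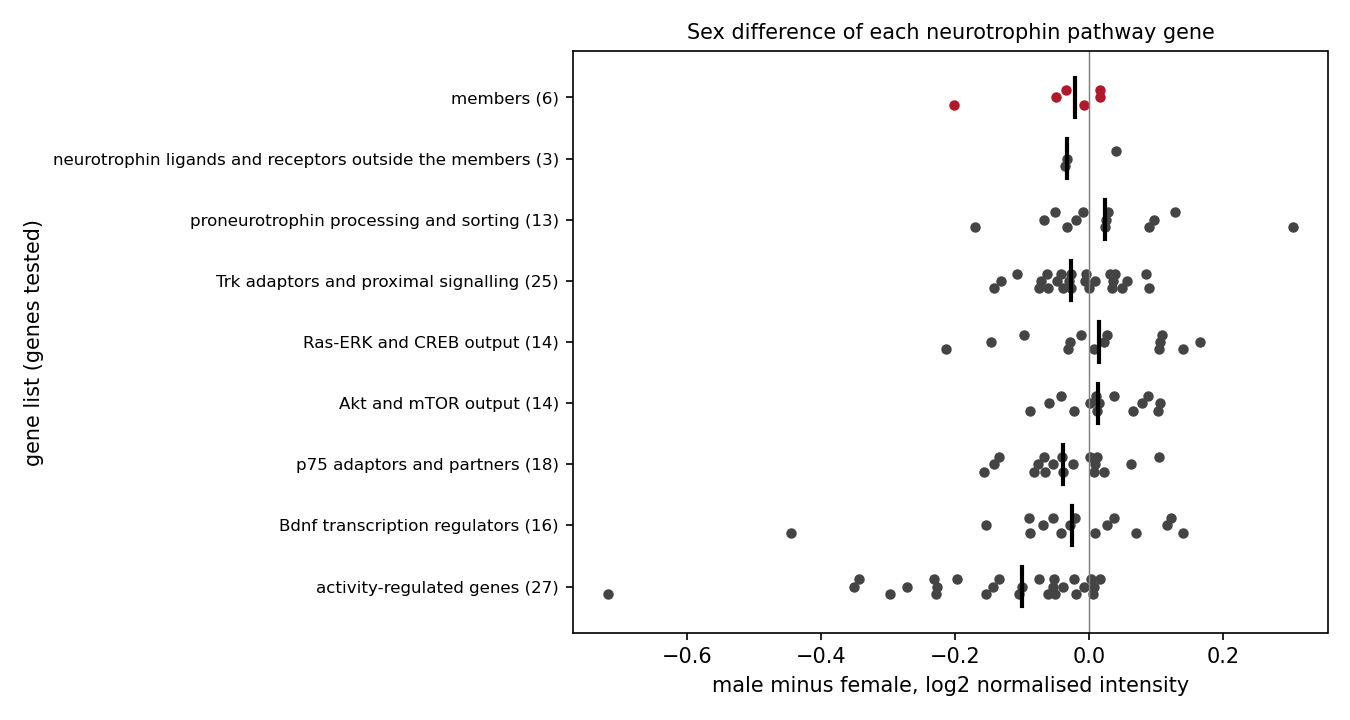
Male minus female difference in log2 normalised intensity (horizontal axis) for each tested gene of the 6 members (top row, red) and of 8 pathway lists (grey), with the number of genes in brackets and a bar at each median. The rows shown centre near 0 apart from the activity-regulated genes, whose median is -0.10, and 0 genes passed the adjusted threshold. Some cell type lists, not shown, had medians of like size, such as -0.13 for interneuron genes.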

How the data were processed

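Per the labels' protocols, RNA of 1 cortex per array was turned into biotin-labelled cRNA for an Illumina rat bead array. The authors deposited 1 linear probe intensity per probe, from the values neither normalised between arrays nor background-subtracted; no source used here gives the scanner software or the build. The authors also deposited a table of 15912 probes in log2 units, which correlated at 0.99996 or above with the quantile-normalised intensities and served as an alternative.

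Intensities were corrected with normexp (offset 50), log2-transformed and quantile-normalised in limma 3.58.1 under R 4.3.3. The 18531 probes above their array's 25th percentile on at least 3 arrays were tested (lmFit, eBayes, Benjamini-Hochberg over all). Symbols came from the platform annotation (10687 probes), of which 10662 were updated through gene identifiers in RefSeq GRCr8; in lists the probe with the highest mean stood for each of 10327 genes. All 571 probes that share every value with another probe were kept, and 0 members are among them. No arrays were identical. Correlations used exact permutation over animals, or within sex or title number for residuals from their means, in Python 3.11.15 with numpy 2.4.6.

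Animals were grouped by labelled sex and numbered within it by record order, which pairs nothing; p-values measure the spread between these animals. The members, lists and tests were chosen with earlier results of these data known. Named genes were the members, up to 3 genes per pathway list by smallest p between the sexes and 2 by largest SD, and the 3 most alike and 2 most opposed genes per member; genes named for their r within a list were chosen after their values were seen. The fits and the permutation code were tested on simulated data. Alternatives were an intensity floor of 64, no normalisation, 75th percentile scaling, no filter, a filter requiring detection on every array, the deposited log2 table, array weights, an intensity trend, title number as a block, residuals, rank correlation, the 6 brighter arrays, and leaving out each animal.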

Additional observations from a re-analysis of the deposited data

Results flagged for a closer look

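A sample far from the others of its group was looked for in 146 sets of values (73 quantities, in the 6 males and in all 9 animals) with Dixon's gap over range, which chance exceeds in about 1 of 20 sets. It was found in 9 sets, where that rate alone gives 7.3, and the 6 members gave 0 of them. The rate does not hold for genes named for their large SD, such as Hap1, and the sets of males lie within those of all 9 animals. Serpini1, which encodes the protease inhibitor neuroserpin, was low in male 2 among males (7.65 against 7.82 for the next, gap over range 0.732) and in female 1 among all 9 animals (7.38 against 7.65, 0.516). Bsg, a cell-surface inducer of matrix proteases, was high in male 6 (8.72 against 8.56, 0.498). Hap1 was high in male 5 (9.44 against 7.93, 0.667 in males and in all 9 animals). Grin2b was low in male 3 (6.84 against 7.13, 0.627). The oligodendrocyte score was low in male 5 (-0.87 against -0.09, 0.647 in males and in all 9 animals), and its thalamus score was high among males (0.09 against 0.02, 0.686). Male 5 was also the highest animal for Ntf3. No cause of these values was tested.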

How the results depend on the processing

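No sex difference of a member passed the threshold under any of 113 alternatives; limma called 0 probes between the sexes under all 19, and the counts at an unadjusted p under 0.05 ranged from 162 (75th percentile scaling) to 722 (without female 2). Across title numbers it called 3 probes without the 3 dimmest arrays and 0 to 1 when 1 animal was left out (1 without male 4), with 918 to 2508 at an unadjusted p under 0.05. None of 368 alternatives over 22 correlations passed (smallest exact permutation adjusted p = 0.052); with title number or sex means removed, animals were permuted within title number or sex, and the 216 orders within title numbers allow no p below 0.0046. Some values changed sign. With no normalisation between arrays, r was 0.37 for Bdnf and Sort1, 0.17 for Ntf3 and Ntrk2, 0.16 for Ntf3 and Ntrk3, 0.21 for Ntrk2 and Sort1, -0.034 for Ntrk3 and Ngfr, 0.45 for Ntrk3 and Sort1, 0.33 for Bdnf and Ras-ERK genes, 0.27 for Ntrk2 and thalamic genes and 0.55 for Ntrk3 and astrocyte genes, and male minus female was 0.023 for Ntrk2, 0.014 for Ntrk3 and 0.025 for Sort1. With 75th percentile scaling, r was -0.18 for Bdnf and Ntf3, 0.0044 for Ntf3 and Ntrk2, 0.21 for Ntf3 and Ngfr, 0.063 for Ntrk2 and Sort1 and 0.066 for Ngfr and Sort1, and male minus female was -0.0098 for Ntf3 and -0.015 for Ngfr. With the floor of 64, r was -0.043 for Bdnf and Ntf3 and -0.17 for Ntf3 and Sort1; Ntf3 lay above the floor in male 5 alone, so these values rest on that animal, and Ngfr lay at the floor on all arrays and gave no r. With title number means removed, r was -0.14 for Bdnf and Ntf3, 0.23 for Ntf3 and Ngfr and -0.44 for Ntf3 and Sort1. Without the 3 dimmest arrays, r was -0.14 for Bdnf and Ntf3 and 0.40 for Bdnf and Ngfr, and male minus female was 0.0053 for Ntrk2 and 0.0043 for Sort1. For Bdnf and Ntrk2, r was -0.015 with sex means removed and rho was -0.27, and with array weights male minus female was -0.017 for Ntf3. Leaving out 1 animal gave r of -0.065 to 0.31 for Bdnf and Ntf3, -0.12 to 0.30 for Bdnf and Ntrk2, -0.59 to 0.021 for Bdnf and Ngfr, -0.39 to 0.29 for Bdnf and Sort1, -0.032 to 0.63 for Ntf3 and Sort1 and -0.40 to 0.069 for Ntrk2 and Sort1, and male minus female of -0.047 to 0.075 for Ntf3, -0.17 to 0.047 for Ntrk2, -0.046 to 0.063 for Ngfr and -0.062 to 0.038 for Sort1. The cause of these changes was not tested. Ntf3 was absent from the setting that requires detection on all 9 arrays. No paired analysis was possible because the labels give no number that pairs animals; with title number as a block 0 probes were called between the sexes. The signal of Ntf3 and Ngfr near background, and 9 animals, limit what could be seen.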

Other observations

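Of the 3 genes whose course over animals was closest to that of Bdnf, Dnajb11 and Pdia4 act in protein folding in the endoplasmic reticulum, the compartment through which secreted proteins such as pro-BDNF pass, and Copg1 does not. A list of 24 folding genes was written after those values had been seen and holds both, so it has no test and supports no theme. Of the 22 that were measured, 20 had a positive r with Bdnf, a count that the way the list was written favours. Of the 5377 named genes compared, 53.9% were positive. Those were detected on all 9 arrays with an SD of at least 0.1 log2 units, limits not set for the 22. The count of 20 includes Dnajb11 and Pdia4. The median r of the 22 was 0.62. Below it lay, among others, Dnajc10 at -0.37, Canx at 0.16, Pdia6 at 0.17, Herpud1 at 0.21, Selenos at 0.24, Sel1l at 0.25 and Dnajb9 at 0.26. The genes named next were picked for their high r. Besides Dnajb11 (0.98), the chaperone gene Hspa5 had 0.92, the secreted stress protein gene Manf 0.91 and the transcription factor gene Xbp1 0.88. Calr had 0.88, Hyou1 0.87 and Creld2 0.85, where the Hyou1 probe was dim, at log2 levels of 5.98 to 6.22. P4hb, the main disulfide isomerase gene, was lowest at -0.59.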
